A study of Mus musculus with 13 samples.

Results

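The 10 genes of the transforming growth factor beta (TGF-beta) pathway described here were measured in bulk RNA from the hippocampus of 5xFAD mice, with 13 libraries in 3 treatment groups. They were taken by symbol from a table of 36287 genes: the ligands Tgfb1, Tgfb2 and Tgfb3, the latent ligand activators Nrros and Itgb8, the receptors Tgfbr1 and Tgfbr2, and the signal transducers Smad2, Smad3 and Smad7. Each of the 10 symbols matched 1 row, and all 10 passed the filter on low counts, which kept 22065 genes. Mice had received ACLP-NT (5 libraries, animals 17, 27, 49, 53 and 55), Aducanumab (4 libraries, animals 24, 50, 56 and 58) or saline (4 libraries, animals 18, 19, 32 and 38). Aducanumab is an antibody to aggregated amyloid beta, and ACLP-NT is known here only by its code name. All groups carry the 5xFAD transgenes, human genes with familial Alzheimer's disease mutations driven by the neuronal Thy1 promoter, so the saline animals are themselves diseased and no library comes from a wild-type mouse. The sources used here name no age, dose or treatment time. Whether the numbered animals shared a litter or a day is not given either, so the p-values measure only the spread between these libraries.

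TGF-beta is secreted bound to its own propeptide and cannot signal until it is activated. Nrros anchors latent TGF-beta on the surface of microglia, and Itgb8, the beta subunit of an integrin carried by other brain cells, takes part in activating it. The ligand brings the type II receptor Tgfbr2 together with the type I receptor Tgfbr1, which phosphorylates Smad2 and Smad3; Smad7 is induced by the signal and damps it. Adult microglia depend on this signal for their resting gene programme, which includes the purine receptor P2ry12 and the transcription factor Sall1.

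Total counts ran from 53642019 to 69734713 per library, and the scaling factors from 0.989 to 1.01. Markers of the dentate gyrus and CA fields were present in every library, at 1660 to 1990 CPM (counts scaled to library size) summed over 15 genes with either treatment and 1570 to 1900 CPM with saline. The 10 markers of neocortex, which borders the dissected tissue, summed to 245 to 320 CPM in ACLP-NT, 234 to 282 CPM in Aducanumab and 268 to 394 CPM in saline libraries. All 10 had lower estimates against saline (median log2 fold change -0.27 in ACLP-NT and -0.47 in Aducanumab). Of the 15 hippocampal markers, 14 in ACLP-NT and 13 in Aducanumab had higher estimates. In edgeR 0 of either list were called, and 0 of all 22065 genes tested. At an unadjusted p below 0.05 in edgeR, 1 neocortex marker was lower in ACLP-NT (3.43% of all genes). In Aducanumab 6 were lower (2.62% of all genes). Of the hippocampal markers, 3 were higher in ACLP-NT (2.46% of all genes). In Aducanumab 2 were higher (2.07% of all genes) and 1 lower. Libraries differed far more in choroid plexus, the tissue that makes cerebrospinal fluid: its 15 markers summed to 321 to 8000 CPM in ACLP-NT, 334 to 8440 CPM in Aducanumab and 285 to 8070 CPM in saline libraries. The 18 microglial markers summed to 1120 to 1760 CPM in ACLP-NT, 1390 to 1790 CPM in Aducanumab and 1720 to 2090 CPM in saline libraries, and all 18 were detected in every group. In bulk tissue, fewer cells of a type and less RNA per cell cannot be told apart.

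All 10 genes were expressed at moderate levels. On the per-length scale (FPKM, fragments scaled to transcript length and library size), Smad3 was the most abundant at 13.4 ± 0.815 FPKM (SD, n = 13), above Tgfbr1 in all 13 libraries. Tgfbr1 followed at 9.47 ± 1.0 FPKM, then Tgfb2 at 7.71 ± 1.29 and Itgb8 at 7.28 ± 1.08 FPKM. These neighbours were not separated by their spread: Tgfbr1 exceeded Tgfb2 in 10 libraries and Tgfb2 exceeded Itgb8 in 9. Tgfbr2 averaged 5.27 ± 1.02 FPKM, and Smad7 lay below it in all 13 libraries at 4.07 ± 0.451 FPKM. Smad2 at 3.46 ± 0.276 FPKM and Tgfb3 at 3.30 ± 0.424 FPKM could not be ordered, as Smad2 was higher in only 8 libraries. Nrros at 2.32 ± 0.232 FPKM and Tgfb1 at 2.02 ± 0.379 FPKM closed the order, with Nrros higher in 10 libraries.

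**Figure D1:**
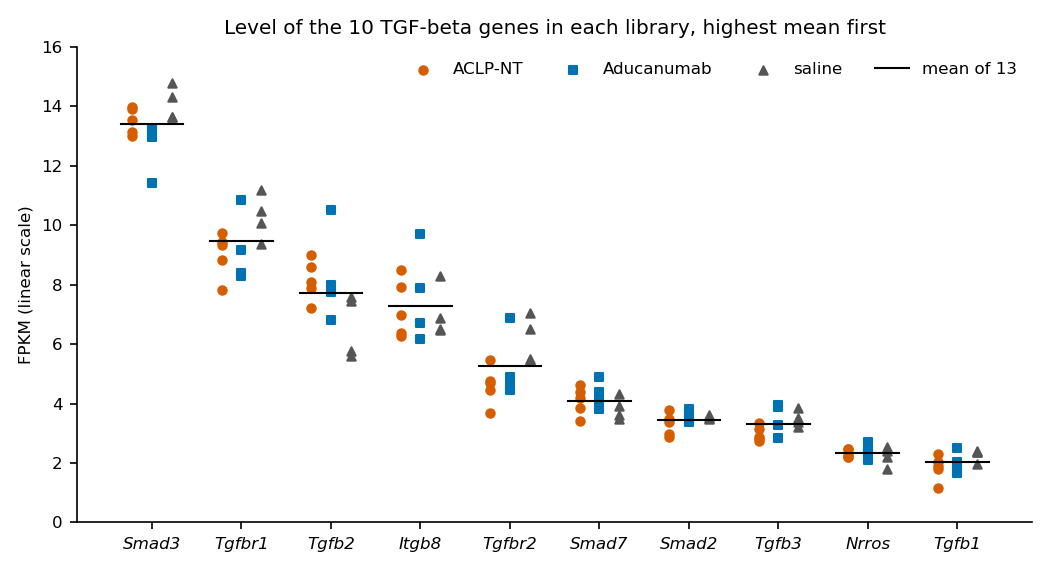
FPKM (linear vertical axis) of each gene in each of the 13 libraries, genes ordered by their mean (black line) and groups marked by colour and shape. Smad3 stands highest at 13.4 FPKM and Tgfb1 lowest at 2.02 FPKM.

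The genes differed in how much they varied. The coefficient of variation over the 13 libraries, in CPM, was 18.8% for Tgfbr2, 18.2% for Tgfb1 and 17.0% for Tgfb2. It was 6.01% for Smad3 and 8.01% for Smad2. Among 7950 tested genes with mean CPM inside the range of the 10, the median was 7.53% and the upper quartile 10.6%. Tgfbr2, Tgfb1, Tgfb2, Itgb8 (14.1%) and Tgfb3 (12.2%) lay above that quartile, Smad7 at it (10.6%), and Tgfbr1 (10.2%) and Nrros (9.74%) just under it.

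Among the ligands, Tgfb2 held the largest share of the transcript pool per length in every library. It held 62.9 ± 2.73% of the summed ligand FPKM in ACLP-NT (SD, n = 5), 59.8 ± 7.38% in Aducanumab (SD, n = 4) and 53.2 ± 3.47% in saline libraries (SD, n = 4). The 5 ACLP-NT shares, 59.8 to 66.6%, lay above the 4 saline shares, 48.5 to 56.5%. Aducanumab shares, 54.4 to 70.1%, overlapped those of saline. The share of Tgfb1 was 9.65 to 17.0% in ACLP-NT, 11.0 to 17.6% in Aducanumab and 17.1 to 21.0% in saline libraries. No test was run on these shares.

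No member passed in any comparison. In ACLP-NT against saline, 0 of the 10 and 0 of 22065 genes (0%) had an adjusted p below 0.05 in edgeR's quasi-likelihood test. At an unadjusted p below 0.05, there were 4 of the 10: Tgfb2 on the higher side, and Tgfb3, Tgfbr1 and Tgfbr2 on the lower. Over all genes tested that share was 5.88% (1298 genes), 2.46% higher and 3.43% lower. The count of 4 was 2 without any one of the 4 saline libraries or of ACLP-NT 27, 53 and 55. It was 0 with the microglia score, the mean level of the microglial markers, as a covariate. In that fit Tgfb2 (0.319, SE 0.172) and Tgfb3 (-0.215, SE 0.137) kept similar estimates, with larger SEs than without it (0.126 and 0.101). In Aducanumab against saline, 0 of the 10 and 0 of 22065 genes (0%) passed, and Tgfb2, higher, and Smad3, lower, had an unadjusted p below 0.05, where 4.68% of all genes (1033) did, 2.07% higher and 2.62% lower. That count of 2 was 1 without saline 18 or Aducanumab 56 and 4 without Aducanumab 58. With the microglia score as a covariate, the genes below 0.05 were Smad3 (unadjusted p 0.00739 in edgeR) and Smad7 (unadjusted p 0.0493 in edgeR). Tgfb2 then had an unadjusted p of 0.0562 in edgeR. In ACLP-NT against Aducanumab, 0 of the 10 and 0 of 22065 genes (0%) passed, and Tgfb3, lower, had an unadjusted p below 0.05, where 3.24% of all genes (716) did, 1.53% higher and 1.71% lower. The 3 comparisons share their libraries pairwise, so their values are not independent of each other. The members were chosen with earlier results of these data known, so their counts beside these shares are descriptions only. Groups of libraries that did not overlap were found for 1 of the 10 in ACLP-NT against saline (lower; 2.26% of all genes in either direction, 0.925% higher and 1.33% lower), for 1 in Aducanumab against saline (lower; 2.58% of all genes, 1.16% higher and 1.41% lower) and for 0 in ACLP-NT against Aducanumab (1.34% of all genes, 0.693% higher and 0.644% lower). DESeq2 called 9, 18 and 3 genes in the same order, and 0 of the 10 members in each.

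**Figure D2:**
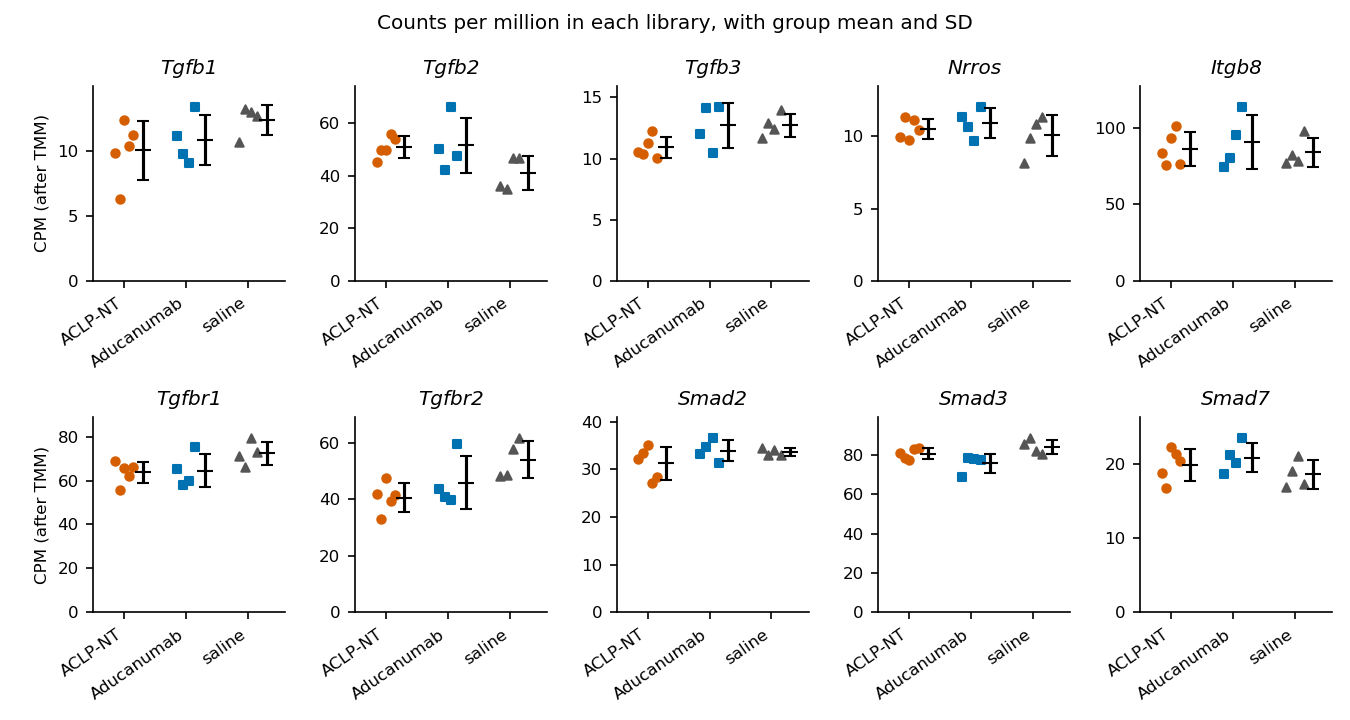
CPM after scaling (vertical axis, from 0, a separate scale for each gene) in every library, with points for libraries and a bar for the group mean ± SD (n = 5 ACLP-NT, 4 Aducanumab, 4 saline). The ACLP-NT points of Tgfbr2 lie at 32.9 to 47.5 CPM, all below the saline points at 48.3 to 61.6 CPM.

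Tgfb1 (ENSMUSG00000002603) encodes the ligand that microglia both make and need. It had 9.84, 6.31, 12.4, 10.4 and 11.2 CPM in ACLP-NT libraries, 11.2, 9.72, 9.09 and 13.4 CPM in Aducanumab libraries and 10.7, 13.2, 12.9 and 12.7 CPM in saline libraries. ACLP-NT 27 was the lowest of all 13, and both treated groups overlapped saline. Its log2 fold change was -0.30 (SE 0.166, adjusted p 0.871 in edgeR) in ACLP-NT against saline, with a 95% interval of -0.66 to 0.052. Without ACLP-NT 27 it was -0.18. For Aducanumab against saline it was -0.19 (SE 0.176, adjusted p 1 in edgeR), with -0.12 without Aducanumab 56 and -0.31 without Aducanumab 58.

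Tgfb2 (ENSMUSG00000039239), the most abundant ligand here, is made mainly by neurons and astroglia in the mouse brain. It had 45.3, 49.9, 49.9, 56.1 and 54.0 CPM in ACLP-NT libraries, 50.2, 42.3, 66.3 and 47.6 CPM in Aducanumab libraries and 36.0, 34.99, 46.9 and 46.8 CPM in saline libraries. The saline libraries split into a lower pair (18 and 19) and a higher pair (32 and 38), and the higher pair overlapped both treated groups. The lower pair had the highest neocortex scores of the 13 libraries (0.535 in saline 18 and 0.552 in saline 19) and the lowest hippocampal marker scores (-0.149 in saline 18 and -0.256 in saline 19), whose part in the level of Tgfb2 was not tested. In the edgeR fit the log2 fold change was 0.31 (SE 0.126, unadjusted p 0.0279, adjusted p 0.796 in edgeR) in ACLP-NT and 0.33 (SE 0.132, unadjusted p 0.0272, adjusted p 1 in edgeR) in Aducanumab against saline. The saline libraries are shared by both values. Without Aducanumab 56, the Aducanumab value was 0.18 (unadjusted p 0.131 in edgeR).

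Tgfb3 (ENSMUSG00000021253), the third ligand, had 10.5, 10.4, 11.3, 12.2 and 10.04 CPM in ACLP-NT libraries, 12.02, 14.2, 10.4 and 14.2 CPM in Aducanumab libraries and 11.7, 12.9, 12.4 and 13.9 CPM in saline libraries. The ACLP-NT values lay low and overlapped the lowest libraries of both other groups. Its log2 fold change was -0.22 (SE 0.101, unadjusted p 0.0445, adjusted p 0.832 in edgeR) in ACLP-NT against saline and -0.22 (SE 0.101, adjusted p 1 in edgeR) in ACLP-NT against Aducanumab. Aducanumab and saline had the same mean, 12.7 CPM.

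Of the activators, Nrros (ENSMUSG00000052384) had 9.97, 11.3, 9.76, 11.1 and 10.4 CPM in ACLP-NT libraries, 11.4, 10.6, 9.67 and 12.1 CPM in Aducanumab libraries and 8.14, 9.92, 10.9 and 11.4 CPM in saline libraries. The groups lay on top of each other, with saline 18 the lowest of the 13. Its log2 fold change was 0.061 (SE 0.104, 95% interval -0.16 to 0.28) in ACLP-NT and 0.12 (SE 0.109, 95% interval -0.12 to 0.35) in Aducanumab against saline.

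Itgb8 (ENSMUSG00000025321) had 83.5, 75.6, 93.2, 101 and 76.2 CPM in ACLP-NT libraries, 74.2, 79.9, 95.1 and 114 CPM in Aducanumab libraries and 77.2, 82.3, 78.0 and 97.8 CPM in saline libraries. Each group held low and high libraries. The log2 fold change was 0.035 (SE 0.123) in ACLP-NT and 0.11 (SE 0.129) in Aducanumab against saline, and the first ran from -0.030 to 0.12 when each library was left out in turn.

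Of the 10 genes, the receptor Tgfbr2 had the smallest unadjusted p in ACLP-NT against saline. Tgfbr2 (ENSMUSG00000032440), which binds the ligand first, had 42.1, 32.9, 47.5, 39.3 and 41.4 CPM in ACLP-NT libraries, 43.5, 40.7, 39.7 and 59.8 CPM in Aducanumab libraries and 48.3, 48.7, 57.8 and 61.6 CPM in saline libraries. All 5 ACLP-NT libraries lay below all 4 saline libraries, by a narrow margin between ACLP-NT 49 and saline 18. This was 1 of the 10 genes, where 1.33% of all tested genes lay wholly below saline. In that comparison its log2 fold change was -0.41 (SE 0.127, 95% interval -0.69 to -0.14, unadjusted p 0.00598, adjusted p 0.746 in edgeR). In Aducanumab, where library 58 lay among the saline values, it was -0.24 (SE 0.135, adjusted p 1 in edgeR), and -0.39 without that library. Aducanumab 58 had the highest scores of the 13 libraries for endothelium (0.431) and for pericytes and smooth muscle (0.656). It was also highest for border-associated macrophages (1.21) and meningeal fibroblasts (1.33). Their part in the level of Tgfbr2 was not tested. The difference between both treatments was -0.18 (SE 0.128, 95% interval -0.45 to 0.098).

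Tgfbr1 (ENSMUSG00000007613), the kinase that phosphorylates the SMADs, had 68.8, 55.8, 65.7, 62.3 and 66.1 CPM in ACLP-NT libraries, 65.1, 58.2, 59.8 and 75.2 CPM in Aducanumab libraries and 71.2, 66.2, 79.3 and 72.9 CPM in saline libraries. Only ACLP-NT 17 entered the saline range from that group. The log2 fold change was -0.18 (SE 0.0802, unadjusted p 0.038, adjusted p 0.806 in edgeR) in ACLP-NT and -0.16 (SE 0.0847, adjusted p 1 in edgeR) in Aducanumab against saline. Per length, Tgfbr1 was 1.73 to 2.12 times Tgfbr2 in ACLP-NT, 1.58 to 1.89 times in Aducanumab and 1.48 to 1.85 times in saline libraries.

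Among the transducers, Smad3 (ENSMUSG00000032402) had 81.3, 78.4, 77.5, 83.1 and 83.7 CPM in ACLP-NT libraries, 68.7, 78.6, 78.2 and 77.7 CPM in Aducanumab libraries and 85.7, 88.5, 82.0 and 80.5 CPM in saline libraries. All 4 Aducanumab libraries lay below all 4 saline libraries, 1 of the 10 genes, where 1.41% of all tested genes did so, and ACLP-NT overlapped both. Aducanumab 24 lay well below the rest of its group and had the lowest neocortex score of the 13 libraries (-0.478). Saline 19 and 18, the highest in Smad3, had the highest neocortex scores (0.552 and 0.535). Aducanumab 56 (score -0.446) and ACLP-NT 53 (score -0.353), next lowest in that score, had 78.2 and 83.1 CPM. Any part of this score in the level of Smad3 was not tested. The log2 fold change was -0.15 (SE 0.0505, 95% interval -0.26 to -0.043, unadjusted p 0.00964, adjusted p 1 in edgeR) in Aducanumab and -0.060 (SE 0.0478, adjusted p 0.934 in edgeR) in ACLP-NT against saline.

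Smad2 (ENSMUSG00000024563) had 32.1, 33.4, 35.2, 27.1 and 28.4 CPM in ACLP-NT libraries, 33.3, 34.7, 36.5 and 31.3 CPM in Aducanumab libraries and 34.4, 32.9, 34.1 and 33.0 CPM in saline libraries. ACLP-NT 53 and 55 were the lowest of the 13. The log2 fold change was -0.11 (SE 0.0741) in ACLP-NT and 0.014 (SE 0.0782) in Aducanumab against saline. Smad7 (ENSMUSG00000025880), the inhibitory SMAD, had 18.8, 16.8, 22.3, 21.4 and 20.5 CPM in ACLP-NT libraries, 18.7, 21.3, 20.2 and 23.5 CPM in Aducanumab libraries and 16.9, 19.1, 21.2 and 17.4 CPM in saline libraries. The groups overlapped, with log2 fold changes of 0.098 (SE 0.0971) in ACLP-NT and 0.17 (SE 0.102) in Aducanumab against saline.

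**Figure D3:**
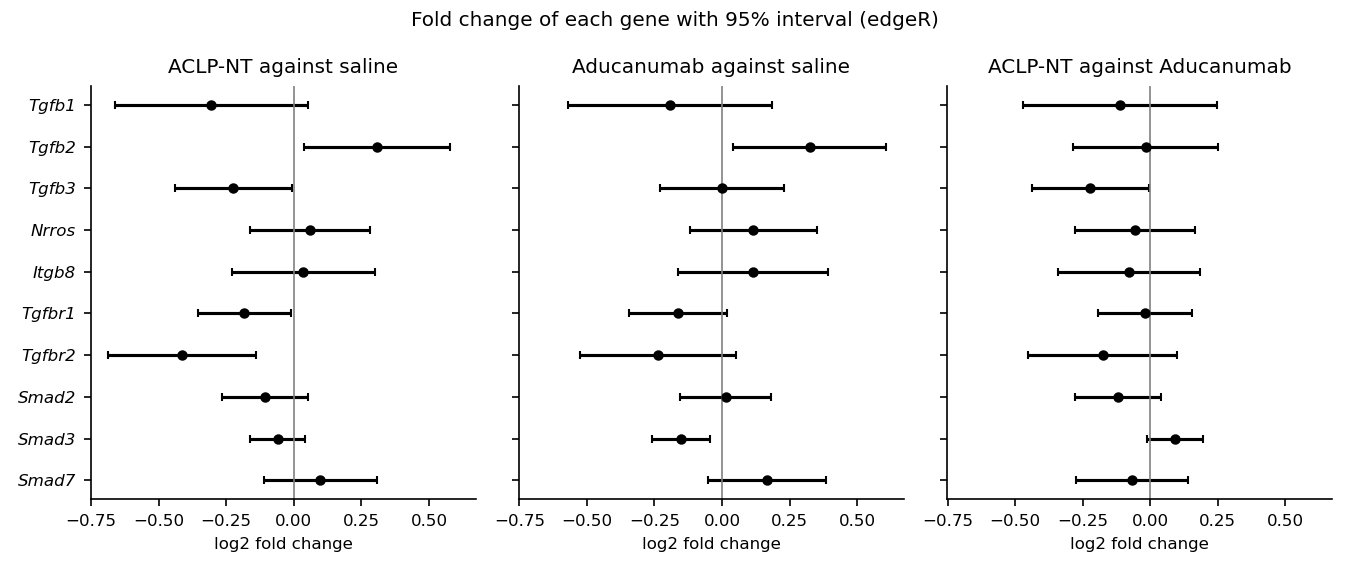
Log2 fold change of each gene (horizontal axis, point) with its 95% interval (bar) from the edgeR fit, 1 panel per comparison, 0 marked in grey. Intervals that leave out 0 are those of Tgfb2, Tgfb3, Tgfbr1 and Tgfbr2 in ACLP-NT against saline, Tgfb2 and Smad3 in Aducanumab against saline and Tgfb3 in ACLP-NT against Aducanumab; none of these had an adjusted p below 0.05.

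Across libraries, Tgfb1, Tgfbr1 and Tgfbr2 moved together. Of the 45 pairs of members, 3 had a permutation p below 0.05 after Benjamini-Hochberg adjustment over the 45, and these were the 3 pairs among those genes. Tgfbr1 and Tgfbr2 had a Pearson r of 0.892 (permutation p 5e-05, adjusted 0.00157) and a Spearman rho of 0.885 (permutation p 0.00011) over 13 libraries, and r was 0.827 without saline 32 and ACLP-NT 27. Tgfb1 and Tgfbr2 had an r of 0.853 (permutation p 7e-05, adjusted 0.00157) and a rho of 0.868 (permutation p 0.00035), with r at 0.815 without ACLP-NT 27 and Aducanumab 56. Tgfb1 and Tgfbr1 had an r of 0.774 (permutation p 0.00118, adjusted 0.0177) and a rho of 0.780 (permutation p 0.00277), with r at 0.631 without the same 2 libraries. With group means taken out, r was 0.867, 0.812 and 0.712 in that order, and 0 of the 45 pairs kept an adjusted p below 0.05.

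These 3 genes also followed the microglial markers. The microglia score of a library is the mean centred log2 CPM of the 18 markers, none of which is a member, and 10 relations were computed. Tgfbr2 had an r of 0.886 with it (permutation p 2e-05, adjusted 0.0002) and a rho of 0.956 (permutation p 1e-05, the smallest these permutations can give). Tgfbr1 had an r of 0.878 (permutation p 0.0001, adjusted 0.0005) and a rho of 0.885 (permutation p 0.00018), and Tgfb1 an r of 0.83 (permutation p 0.00036, adjusted 0.0012) and a rho of 0.824 (permutation p 0.00095). Without ACLP-NT 27 and 53, the libraries lowest in the score, r was 0.853, 0.892 and 0.780 in that order, and with group means taken out it was 0.807, 0.825 and 0.772. Of all tested genes, 99.5%, 99.5% and 99.2% had a lower r. Nrros, although a gene of microglia, had an r of -0.111 (permutation p 0.716) and a rho of 0.104 (permutation p 0.738). Its r was 0.223 without ACLP-NT 27 and 53, and 0.0641 with group means taken out. The other 6 had r between -0.349, for Tgfb2, and 0.342, for Tgfb3, with adjusted permutation p of 0.508 or more. A score of 18 markers of disease-associated microglia was highest in Aducanumab 58 (0.41), saline 38 (0.357) and saline 32 (0.324). These libraries were also the highest in Tgfbr1 and Tgfbr2, and in the microglia score (0.131, 0.312 and 0.349 in that order). For Tgfb1, saline 19 (disease-associated score -0.0172) was second, at 13.2 CPM. No correlation with the disease-associated score was computed.

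**Figure D4:**
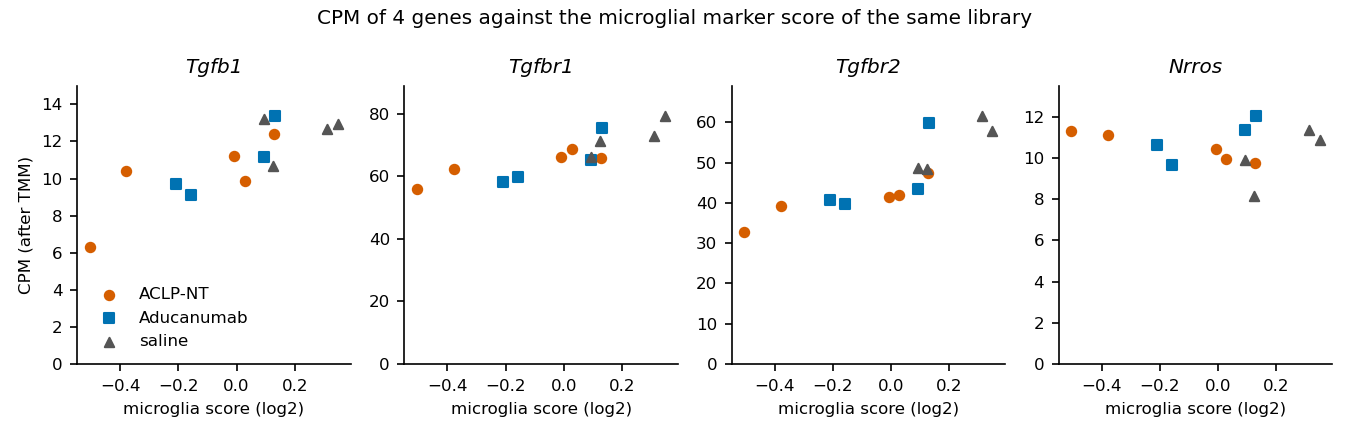
CPM after scaling (vertical axis, from 0) against the microglia score of the same library (horizontal axis, log2 units), 1 point per library, groups by colour and shape. Tgfb1, Tgfbr1 and Tgfbr2 are lowest in ACLP-NT 27, the library with the lowest score, whereas Nrros has 11.3 CPM there.

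With the microglia score as a covariate in the same edgeR fit, the group differences of these 3 genes against saline shrank or turned. In ACLP-NT against saline the log2 fold change was -0.11 (SE 0.108) for Tgfbr2, 0.0052 (SE 0.0692) for Tgfbr1 and 0.039 (SE 0.157) for Tgfb1, with adjusted p of 0.966, 0.999 and 0.993. In Aducanumab against saline it was -0.028 (SE 0.0989), -0.035 (SE 0.0635) and 0.049 (SE 0.145). In the same fit Tgfb2 was at 0.32 (SE 0.172) in ACLP-NT and 0.33 (SE 0.159) in Aducanumab, and Smad3 at -0.18 (SE 0.0569, unadjusted p 0.00739, adjusted p 0.637 in edgeR) in Aducanumab against saline. The slope on the score itself, adjusted over all genes, was 0.83 (SE 0.185, adjusted p 0.0988) log2 units per unit of score for Tgfbr2, 0.52 (SE 0.119, adjusted p 0.126) for Tgfbr1 and 0.997 (SE 0.278, adjusted p 0.292) for Tgfb1, where 85 genes (0.385%) passed with a positive slope in edgeR.

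The sequences before the starts of these 3 genes are shown because the genes moved together, and that of Tgfb2 because it did not move with them. RefSeq promoter windows (GRCm38.p6) were found for 7 of the 10 genes, and the 250 bases upstream of the start are printed 5′ to 3′ on the gene's strand. Capitals mark matches on either strand to any of 5 motifs. The first, the GC box bound by Sp-family factors, was searched as GGGCGG, and the TATA box near many regulated starts was searched as TATAAA. The short element bound by SMAD proteins was searched as CAGACA, and the SMAD palindrome, which pairs such elements, as GTCTAGAC. A site of the microglial transcription factor PU.1 was searched as GAGGAAGT.
Tgfb1, chr7:25686752-25687001, plus strand: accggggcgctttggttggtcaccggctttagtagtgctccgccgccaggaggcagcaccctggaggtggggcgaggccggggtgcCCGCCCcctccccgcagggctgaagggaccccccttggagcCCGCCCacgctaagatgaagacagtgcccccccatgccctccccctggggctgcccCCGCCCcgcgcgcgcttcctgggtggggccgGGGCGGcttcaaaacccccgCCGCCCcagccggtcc
Tgfbr1, chr4:47352972-47353221, plus strand, the first of 2 windows: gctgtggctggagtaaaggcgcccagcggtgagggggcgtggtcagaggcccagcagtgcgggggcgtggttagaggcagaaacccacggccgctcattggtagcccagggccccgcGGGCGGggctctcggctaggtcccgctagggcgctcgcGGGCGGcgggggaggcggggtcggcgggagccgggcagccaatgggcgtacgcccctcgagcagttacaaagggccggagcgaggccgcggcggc
Tgfbr2, chr9:116175364-116175613, minus strand: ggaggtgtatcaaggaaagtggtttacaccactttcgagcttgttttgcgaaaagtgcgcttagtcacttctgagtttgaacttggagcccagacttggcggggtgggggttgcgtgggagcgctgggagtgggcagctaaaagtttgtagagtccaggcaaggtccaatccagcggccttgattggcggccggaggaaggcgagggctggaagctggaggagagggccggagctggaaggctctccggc
Tgfb2, chr1:186705990-186706239, minus strand: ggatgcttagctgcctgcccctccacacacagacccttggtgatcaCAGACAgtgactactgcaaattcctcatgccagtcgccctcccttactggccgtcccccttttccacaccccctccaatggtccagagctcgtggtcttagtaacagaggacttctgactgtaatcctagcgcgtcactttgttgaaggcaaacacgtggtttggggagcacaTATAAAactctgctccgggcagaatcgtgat

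The window of Tgfb1 held 5 GC boxes and that of Tgfbr1 held 2, at 75.2% and 74.8% G and C. The second window of Tgfbr1 (chr4:47385966-47386215), at 52.8%, held the short SMAD element at position -203. That of Tgfbr2, at 58.4%, held none of the 5 motifs. Tgfb2, at 53.6%, had a TATA box that began at position -31 from the start and the short SMAD element at position -204. Over 32851 windows of the same length, 32.7% held a GC box, 12.4% a TATA box, 17.1% the short SMAD element, 2.44% the PU.1 motif and 0.167% the SMAD palindrome, and the median G and C content was 52.4%. These matches are descriptions of the letters alone.

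Itgb8 followed the choroid plexus instead. The 4 libraries with the lowest choroid plexus score (saline 18, ACLP-NT 55, Aducanumab 50 and saline 32) had 76.2 to 79.9 CPM of Itgb8, and the 5 with the highest (Aducanumab 58, saline 38, ACLP-NT 53, Aducanumab 56 and ACLP-NT 49) had 93.2 to 114 CPM. The 4 libraries between them did not fall in order: Aducanumab 24 (74.2 CPM) and ACLP-NT 27 (75.6 CPM) had the lowest values of all 13, and saline 19 had 82.3 and ACLP-NT 17 had 83.5 CPM. The slope on the score, tested in edgeR and adjusted over all genes, was 0.075 log2 units per unit of score (SE 0.0165, adjusted p 0.0199), where 663 genes (3%) passed with a positive and 15 (0.068%) with a negative slope. None of the other 9 members passed there, with adjusted p of 0.575 or more. With this score as covariate the log2 fold change of Itgb8 in ACLP-NT against saline was -0.083 (SE 0.0824). Tgfbr2 was at -0.47 (SE 0.124, unadjusted p 0.00203, adjusted p 0.662 in edgeR) and Tgfb2 at 0.26 (SE 0.124, unadjusted p 0.0574, adjusted p 0.739 in edgeR) in the same fit. Both slope tests were chosen after seeing the data.

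**Figure D5:**
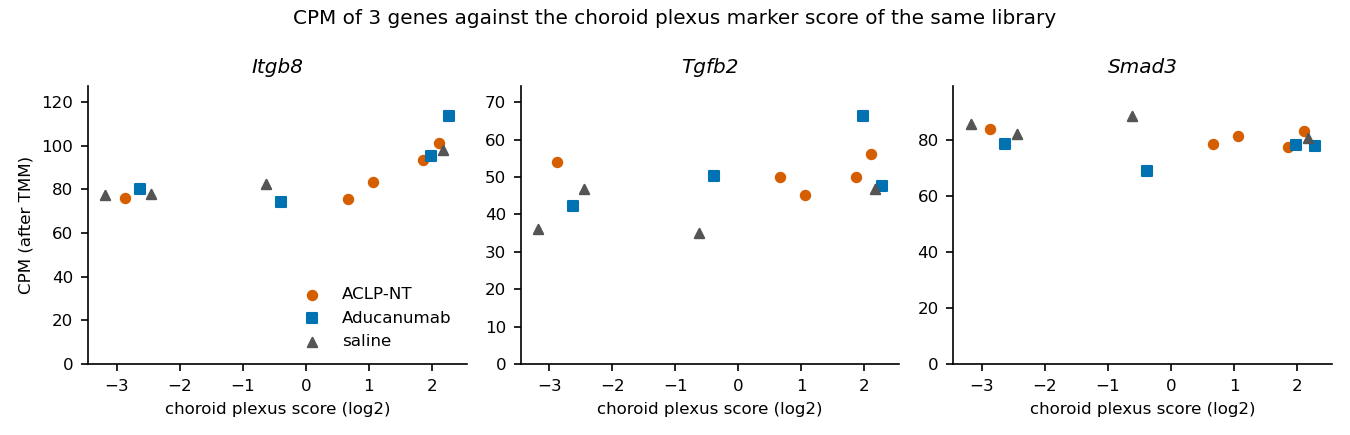
CPM after scaling (vertical axis, from 0) of Itgb8, Tgfb2 and Smad3 against the choroid plexus score of the same library (horizontal axis, log2 units), 1 point per library, groups by colour and shape. Itgb8 is highest, at 93.2 CPM or more, in the 5 libraries with the highest score, which come from all 3 groups.

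For each member the 3 genes with the highest r over the 13 libraries were looked up among 14038 named genes with a mean of at least 1 CPM; with so many candidates a high r is a description only, and no p is given. Tgfb1 was closest to Sting1 (r = 0.968), the adaptor of cytosolic DNA sensing, then to Klhl6 and Cmklr1. Tgfbr1 was closest to Lilrb4a (0.958), Pros1 (0.941), a ligand of the TAM receptors, and Fcrl2 (0.934). Tgfbr2 was closest to Prdx6 (0.949), Itgb2 (0.946), the leukocyte integrin beta subunit, and Tcirg1 (0.945). Itgb8 was closest to Sorbs3 (0.975), Atp11a (0.975) and Lrp10 (0.973). Nrros was closest to Son (0.917), a splicing cofactor, Tent2 (0.878) and Ccnl2 (0.876), none of them particular to microglia. Tgfb2 was closest to Mtmr12, Foxk1 and Pgpep1 (0.907 to 0.914), and Tgfb3 to Tnfrsf11a, Sh3pxd2b and Rcsd1 (0.864 to 0.881). For the SMADs the highest values were 0.891 for Smad3 with Mtcl1, 0.879 for Smad2 with Tagap1 and 0.845 for Smad7 with Sap30bpos. The next were Tmub1 and Cyp26b1 for Smad3, Rpap3 and Dcp2 for Smad2, and Cnmd and Mydgf for Smad7.

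Other genes that store, activate, receive or pass on TGF-beta went both ways. Of 34 such genes, all tested, 0 passed in edgeR in any comparison, where 0% of all genes did. The median log2 fold change was -0.0093 in ACLP-NT and 0.019 in Aducanumab against saline, beside -0.0015 and 0.0036 over all genes tested. In ACLP-NT 0 had an unadjusted p below 0.05, where 5.88% of all genes did. The 3 smallest p were those of the coactivator Ep300 (log2 fold change 0.082, SE 0.041), the integrin subunit Itgb5 (-0.23, SE 0.117) and Itgav, the alpha subunit that pairs with Itgb8 (-0.13, SE 0.077). In Aducanumab 1 had an unadjusted p below 0.05, where 4.68% of all genes did. It was Smurf2, a ubiquitin ligase that targets TGF-beta receptors and SMADs. Smurf2 had 43.4 ± 3.63 CPM in Aducanumab (SD, n = 4) against 37.6 ± 1.54 CPM in saline (SD, n = 4). Its log2 fold change was 0.21 (SE 0.0681, unadjusted p 0.00841, adjusted p 1 in edgeR). Its 4 Aducanumab libraries, at 39.9 to 48.4 CPM, lay above the 4 saline libraries, at 35.3 to 38.7 CPM, where 1.16% of all genes did so. The next smallest p were those of the coreceptor Tgfbr3 (0.40, SE 0.219) and the phosphatase Ppm1a (-0.069, SE 0.0525). In ACLP-NT against Aducanumab the smallest p were those of Smurf2 (-0.17, SE 0.0644, unadjusted p 0.0189, adjusted p 1 in edgeR), Ep300 (0.081, SE 0.041) and the matrix proteoglycan Fmod.

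Genes that TGF-beta induces in many cell types gave a median of -0.035 in ACLP-NT and 0.14 in Aducanumab against saline, over 22 genes. In either comparison 0 passed in edgeR, where 0% of all genes did. In ACLP-NT the smallest p belonged to Itgb5, the cell cycle inhibitor Cdkn1a (0.22, SE 0.155) and the SMAD repressor Skil (0.076, SE 0.0583). An unadjusted p below 0.05 in edgeR was held by 0 of the 22 in ACLP-NT against saline, where 5.88% of all genes had one. In Aducanumab against saline 1 had such a p, on the higher side, where 2.07% of all genes did. It was Timp1, an inhibitor of matrix proteases, at 0.82 (SE 0.340, unadjusted p 0.0304 in edgeR). Its Aducanumab libraries lay wholly above saline, where 1.16% of all genes did so. The collagen Col3a1 was at 0.65 (SE 0.401). In ACLP-NT against Aducanumab 3 of the 22 had such a p, all lower, where 1.71% of all genes did so. Timp1 was at -1.02 (SE 0.321, unadjusted p 0.00674, adjusted p 1 in edgeR) and Col3a1 at -0.85 (SE 0.379, unadjusted p 0.0408, adjusted p 1 in edgeR). The ACLP-NT libraries of Timp1 lay wholly below Aducanumab, where 0.644% of all genes did so. Timp1 averaged only 0.525 ± 0.198 CPM in ACLP-NT (SD, n = 5), 1.07 ± 0.0205 CPM in Aducanumab and 0.604 ± 0.245 CPM in saline libraries (SD, n = 4 each). Markers of meningeal fibroblasts, which share the collagens, summed to 139 to 417 CPM in ACLP-NT, 277 to 730 CPM in Aducanumab and 209 to 502 CPM in saline libraries, highest in Aducanumab 58; their part in these values was not tested.

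Microglial genes known to depend on TGF-beta were lower in estimate with both treatments, though 0 of 17 tested passed in edgeR, where 0% of all genes did. The list held 18 genes, of which Fcrls matched no row by that symbol and was not used. In ACLP-NT against saline 13 of 17 had a negative log2 fold change, the median was -0.24, and 8 had an unadjusted p below 0.05, all lower, where 3.43% of all genes did so. In Aducanumab against saline the same counts were 13 and 8, with a median of -0.27, where 2.62% of all genes had such a p on the lower side. Both comparisons use the same 4 saline libraries, so the second does not repeat the first independently. The list was chosen with earlier results of these data known, so these counts are descriptions only. Libraries lay wholly below saline for 3 of the 17 in ACLP-NT (1.33% of all genes) and 7 of the 17 in Aducanumab (1.41% of all genes). P2ry12 averaged 59.6 ± 4.34 CPM in ACLP-NT (SD, n = 5), 58.2 ± 3.38 CPM in Aducanumab and 72.1 ± 8.16 CPM in saline libraries (SD, n = 4 each). Sall1 lay at 29.5 to 37.8 CPM in ACLP-NT, 30.3 to 32.7 CPM in Aducanumab and 37.5 to 40.5 CPM in saline libraries, so the Aducanumab libraries did not overlap saline. The purine receptor P2ry13 lay at 16.4 to 23.8 CPM in ACLP-NT and 24.7 to 28.8 CPM in saline libraries, with a log2 fold change of -0.39 (SE 0.113, unadjusted p 0.00371, adjusted p 0.722 in edgeR). The hexose transporter Slc2a5 averaged 7.85 ± 1.08 CPM in Aducanumab and 11.4 ± 0.926 CPM in saline libraries (SD, n = 4 each), a log2 fold change of -0.54 (SE 0.142, unadjusted p 0.00205, adjusted p 0.905 in edgeR). In ACLP-NT against Aducanumab the median was -0.0013, and 0 genes had an unadjusted p below 0.05, where 3.24% of all genes did. The 3 smallest p belonged to Slc2a5 (0.26, SE 0.135), the lectin Siglech and Sall1 (0.064, SE 0.0652). This list shares 6 genes with the microglial markers, whose 18 members were all lower in both comparisons with saline (medians -0.36 in ACLP-NT and -0.26 in Aducanumab), and their part in the result was not tested.

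A list of BMP and activin genes of the same superfamily had medians near 0. Of 22 receptors, SMADs, ligands and ligand traps, 0 passed in edgeR in any of the 3 comparisons, where 0% of all genes did. An unadjusted p below 0.05 in edgeR was also held by 0 of the 22. Over all genes that share was 5.88% in ACLP-NT against saline, 4.68% in Aducanumab against saline and 3.24% in ACLP-NT against Aducanumab. The medians were -0.017 in ACLP-NT and 0.011 in Aducanumab against saline. The smallest p of this list in ACLP-NT belonged to the activin subunit Inhba (0.21, SE 0.123), the activin trap Fst (0.58, SE 0.352) and the receptor Acvr2a (-0.14, SE 0.0954). In Aducanumab they belonged to Smad1 (0.095, SE 0.0712), Acvr2b (-0.18, SE 0.158) and Bmpr1a (-0.060, SE 0.0536), and in ACLP-NT against Aducanumab to Smad1 (-0.14, SE 0.0675), Inhba (0.23, SE 0.123) and Fst (0.59, SE 0.352).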

How the data were processed

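RNA from 13 hippocampi was sequenced. The deposited table holds counts and FPKM per gene and library, made by the authors with cutadapt 1.9, HISAT2 2.0.4, StringTie 1.3.4d and edgeR, per the submitters' processing notes; the sources used here name no counter, annotation release or genome build. Deposited FPKM values are per length and were used for levels and ratios between genes and, with limma, as an alternative test. Counts were filtered (filterByExpr, 22065 of 36287 genes kept), scaled by TMM and tested with edgeR 4.0.16 (quasi-likelihood, 3 groups in 1 fit, Benjamini-Hochberg adjustment over all genes, threshold 0.05) in R 4.3.3. The common biological coefficient of variation was 0.226. SEs were derived from each log2 fold change and its F statistic. DESeq2 1.42.0 and limma 3.58.1 were alternatives. Marker scores are means of centred log2 CPM (prior count 2); correlations used 100000 permutations, two-sided. All 10 members were named, with the 3 smallest p of each list and comparison and the 3 most correlated genes of each member; 1 gene so chosen is not reported here. Steps were tested on simulated data. The members and lists were chosen with earlier results of these data known.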

Additional observations from a re-analysis of the deposited data

Results flagged for a closer look

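Among 30 sets of 1 member in 1 group, 1 held a library far from the rest: Smad3 had 68.7 CPM in Aducanumab 24, against 77.7 to 78.6 CPM in the other 3 Aducanumab libraries, a gap of 0.901 of the group's range. Chance alone sets about 1 such group in 20 apart. Aducanumab 24 also had the lowest neocortex score of the 13 libraries (-0.478), whose part was not tested. Without Aducanumab 24 or any other single library, the log2 fold change of Smad3 in Aducanumab against saline ran from -0.17 to -0.11.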

How the results depend on the processing

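No member was called under any alternative run: other filters, scalings, tools and pseudocounts, only the groups compared, either score as a covariate, or each library left out (0 to 0). Over all genes, DESeq2 called 9 in ACLP-NT and 18 in Aducanumab against saline and 3 in ACLP-NT against Aducanumab, where edgeR called 0; leaving out single libraries gave 0 to 1. With group means taken out, 0 of 45 member pairs passed, against 3. With the microglia score as covariate, log2 fold changes changed sign for Tgfb1 (0.0391) and Tgfbr1 (0.00524) in ACLP-NT against saline, Tgfb1 (0.0493) and Tgfb3 (0.00402) in Aducanumab against saline and Tgfbr1 (0.0405) in ACLP-NT against Aducanumab. With the choroid plexus score, Itgb8 in ACLP-NT against saline was -0.0828. With libraries left out, sign changes fell within -0.0287 to 0.125 (Nrros) and -0.0304 to 0.119 (Itgb8) in ACLP-NT against saline. In Aducanumab against saline the ranges were -0.059 to 0.0814 (Tgfb3), -0.0227 to 0.0526 (Smad2) and -0.0113 to 0.199 (Itgb8). In ACLP-NT against Aducanumab they were -0.101 to 0.128 (Tgfb2), -0.195 to 0.0192 (Tgfb1), -0.164 to 0.0476 (Itgb8) and -0.0663 to 0.0629 (Tgfbr1). For Tgfbr2 in ACLP-NT against saline, leaving out single libraries gave -0.472 to -0.343, and the other alternatives -0.471 to -0.109, the last with the microglia score as covariate. At an unadjusted p below 0.05, leaving out single libraries gave 2 to 4 members in ACLP-NT and 1 to 4 in Aducanumab against saline. The cause was not tested. No paired analysis was possible because no animal number occurs in more than 1 group.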
